A study of Mus musculus with 67 samples.

Results

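The 10 genes described here encode proteins that hold the cells of a mouse embryo together: E-cadherin (Cdh1) with its partners alpha-catenin (Ctnna1) and beta-catenin (Ctnnb1), the tight junction proteins ZO-1 (Tjp1) and occludin (Ocln), 3 claudins (Cldn4, Cldn6 and Cldn7), and the adhesion molecules Epcam and Cxadr. They were taken by symbol from the 26414 genes of the deposited table, and all 10 were found in it. Of these genes, 9 were listed for their role, with earlier results of these data known. Cxadr was chosen by its higher level in light 2-cell embryos. Its values at that stage are therefore given as a description and not as a test. In GRCm38 coordinates, Cdh1 lies at chr8:106603351-106670246, Ctnna1 at chr18:35118859-35254779, Ctnnb1 at chr9:120929216-120960507, Tjp1 at chr7:65296165-65527781, Ocln at chr13:100496507-100552718, Cldn4 at chr5:134945119-134946934, Cldn6 at chr17:23679249-23682446, Cldn7 at chr11:69964779-69967885, Epcam at chr17:87635979-87651129 and Cxadr at chr16:78301489-78359774. The table holds 67 libraries of C57BL/6 embryos fertilised in vitro, 34 from embryos exposed to light and 33 from controls. Light embryos were illuminated as 2-cell embryos with 5000 lx for 6 h and then kept in the dark, and control embryos stayed in the dark throughout. Control and light libraries numbered 7 and 6 for 2-cell embryos, 6 and 8 for 4-cell embryos, 4 and 8 for 8-cell embryos, 13 and 6 for morulae, and 3 and 6 for blastocysts. The labels call each library an embryo with a number, whereas the methods describe single cells picked from dissociated embryos before SMART-seq2, an amplification of full-length polyadenylated RNA. How many separate embryos stand behind a group is therefore uncertain, and the p-values measure the spread between these libraries.

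At compaction the blastomeres of the mouse embryo flatten against each other. E-cadherin, tied to actin through beta- and alpha-catenin, carries this adhesion, and tight junctions then form in steps at the outer cell borders, with ZO-1 as an inner scaffold and occludin and claudins as the membrane strands. The sealed outer layer becomes the trophectoderm, which pumps fluid to form the blastocyst cavity, and Epcam and Cxadr are surface proteins of such epithelia, Cxadr also being the receptor for coxsackie- and adenoviruses.

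The promoters of Cldn4, Cldn7 and Epcam are shown because these 3 genes had the widest changes between stages among those with a RefSeq promoter entry free of annotated exons. RefSeq entries of GRCm38.p6 were found for 7 of the 10 genes, matched by symbol, and each sequence runs over the 250 bases before the start of transcription, on the gene's strand. Capitals mark CACCTG on either strand (read as CAGGTG on the other), the hexamer bound by Snail-type repressors of epithelial genes. The windows lie at chr5:134946935-134947184 on the minus strand for Cldn4, chr11:69964529-69964778 on the plus strand for Cldn7 and chr17:87635729-87635978 on the plus strand for Epcam.
Cldn4: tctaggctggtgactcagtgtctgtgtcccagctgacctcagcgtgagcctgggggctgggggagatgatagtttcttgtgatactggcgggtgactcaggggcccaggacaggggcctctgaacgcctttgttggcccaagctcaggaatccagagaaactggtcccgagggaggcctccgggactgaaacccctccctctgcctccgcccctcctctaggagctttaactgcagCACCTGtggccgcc
Cldn7: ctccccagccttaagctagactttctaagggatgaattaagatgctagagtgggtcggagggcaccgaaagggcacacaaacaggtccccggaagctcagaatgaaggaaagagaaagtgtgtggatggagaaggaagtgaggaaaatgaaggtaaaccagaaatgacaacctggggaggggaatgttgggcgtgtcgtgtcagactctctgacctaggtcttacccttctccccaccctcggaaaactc
Epcam: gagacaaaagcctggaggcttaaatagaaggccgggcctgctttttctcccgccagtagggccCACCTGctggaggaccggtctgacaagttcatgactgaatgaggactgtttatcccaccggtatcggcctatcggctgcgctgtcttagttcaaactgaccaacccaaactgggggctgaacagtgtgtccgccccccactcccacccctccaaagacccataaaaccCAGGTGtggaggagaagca
The hexamer stood 14 bases before the start of Cldn4, and at 187 and 19 bases before that of Epcam. It was not found in these letters of Cldn7, although a second Cldn7 entry held it on both strands. Ocln and Cldn6 also held it, so that 5 of the 10 entries of these 7 genes had it, and 17.2% of all 32851 entries of this length. Of the entries with the hexamer, those of Ocln and Cldn6 and the second of Cldn7 share up to 155, 116 and 196 bases with an annotated exon. Those of Cldn4 and Epcam share none. How many of all entries share bases with exons was not counted. The other motifs searched on both strands were GGAATG, bound by TEAD factors, in 1 of the 10 entries (Cldn7, at 70 bases) and 12.6% of all entries, GCCNNNGGC of AP-2 in 3 and 13.7%, CACCC of KLF factors in 6 and 52.0%, and TATAAA in 1 and 12.4%. AACCNGTT of grainyhead-like factors was in 0 of the 10 entries and 1.79% of all entries. These matches describe letters, not bound sites. CACCTG can overlap CACCC only in part of its letters, and the motifs were chosen with the genes known.

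The values are reads on a gene divided by a size factor of its library, written below as normalised reads. One read was worth 0.266 to 3.89 normalised reads, and the libraries held 836011 to 8551674 reads, of which 54.0% to 89.3% lay on the ribosomal genes CT010467.1 and Gm42418. Differences are on the scale of log2 of the normalised reads plus 1, which understates the change of low genes, and a gene was called when limma gave a Benjamini-Hochberg adjusted p under 0.05 with a fold change of at least 2. On the deposited scale the median difference of all genes was -0.64 between light and control blastocysts, -0.72 from the 2-cell to the 4-cell stage in control and -0.56 in light, -0.56 from the 4-cell to the 8-cell stage in control and -0.45 in light, and -0.45 from morula to blastocyst in light. From morula to blastocyst in control this median was 0.28. The ratio of Gm42418 to CT010467.1 reads was 1.29 to 1.77 in all light libraries, and 2.34 to 4.03 in control 2-cell, 2.01 to 2.34 in control 8-cell and 2.34 to 4.14 in control morula libraries, so light and whatever sets this ratio cannot be told apart at those stages. Markers of the 2-cell stage (5 Zscan4 and Tcstv genes) summed to 24.8 to 750.8 normalised reads in the 2-cell libraries. Among later libraries their sum was 145.7 in light 4-cell library 1 and at most 54.8 in the others. Trophectoderm markers summed to 404.5 to 6751 in blastocysts, and blood markers (2 of 3 in the table) to at most 17.9 in any library. Whether a library holds a single cell or an embryo is uncertain. A difference in which cells were sampled and a difference in RNA per cell therefore cannot be told apart.

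E-cadherin RNA was present in each of the 67 libraries and was highest in control blastocysts. In the control group the median of Cdh1 was 168.3 normalised reads at the 2-cell stage (92.7 to 236.0, n = 7), 194.4 at the 4-cell stage (42.6 to 353.9, n = 6) and 160.9 in morulae (101.2 to 232.0, n = 13). The 4 control 8-cell libraries had 31.5, 34.8, 103.3 and 148.5, and the 3 control blastocyst libraries 308.8, 518.7 and 725.6. All blastocyst values lay above all morula values. Cdh1 rose from the 8-cell stage to the morula by 1.34 (SE 0.38, adjusted p = 0.0183 by limma) and from morula to blastocyst by 1.57 (SE 0.35, adjusted p = 0.00335 by limma). The first call was lost without control 8-cell library 1 (1.00, adjusted p = 0.116 by limma) or 3 (1.05, adjusted p = 0.109 by limma) and with both count tools, and the second without control blastocyst library 3 (1.28, adjusted p = 0.0859 by limma).

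Of the catenins, alpha-catenin was called at a step between control stages and beta-catenin was not. Ctnna1, which links the cadherin complex to actin, rose by 2.07 from the control 8-cell stage (8.52, 17.4, 83.3 and 83.9 normalised reads) to the morula (lowest 56.2, median 145.6, highest 268.9; SE 0.49, adjusted p = 0.00451 by limma). The 8-cell libraries fell into a low and a high pair, and the high pair lay inside the morula range. Without control 8-cell library 2 the rise was 1.46 and not called (adjusted p = 0.0567 by limma). Ctnna1 also rose by 1.02 at this step in the light group (SE 0.27, adjusted p = 0.012 by limma), from 51.9 to 90.3 (n = 8) to a median of 147.8 (98.0 to 186.5, n = 6). These groups did not overlap, and the difference dropped below a fold change of 2, to as little as 0.93, without light 8-cell library 7, 8 or 10 or light morula library 3, 9 or 12. Ctnnb1, both the cadherin partner and a signal carrier of the Wnt pathway, had control medians of 224.3, 146.1, 66.8, 101.7 and 151.0 normalised reads over the 5 stages, and no step between neighbouring control stages was called. In the light group it fell by 1.01 from the 4-cell to the 8-cell stage (SE 0.33, adjusted p = 0.036 by limma). With the 3 other scalings and the 2 count tools this difference was -0.38 to -0.45 and not called. Ctnnb1 shares 759 exon bases with Ulk4 on the opposite strand and Ctnna1 95 with Lrrtm2, and whether reads were counted by strand is not given in the sources used here.

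**Figure D1:**
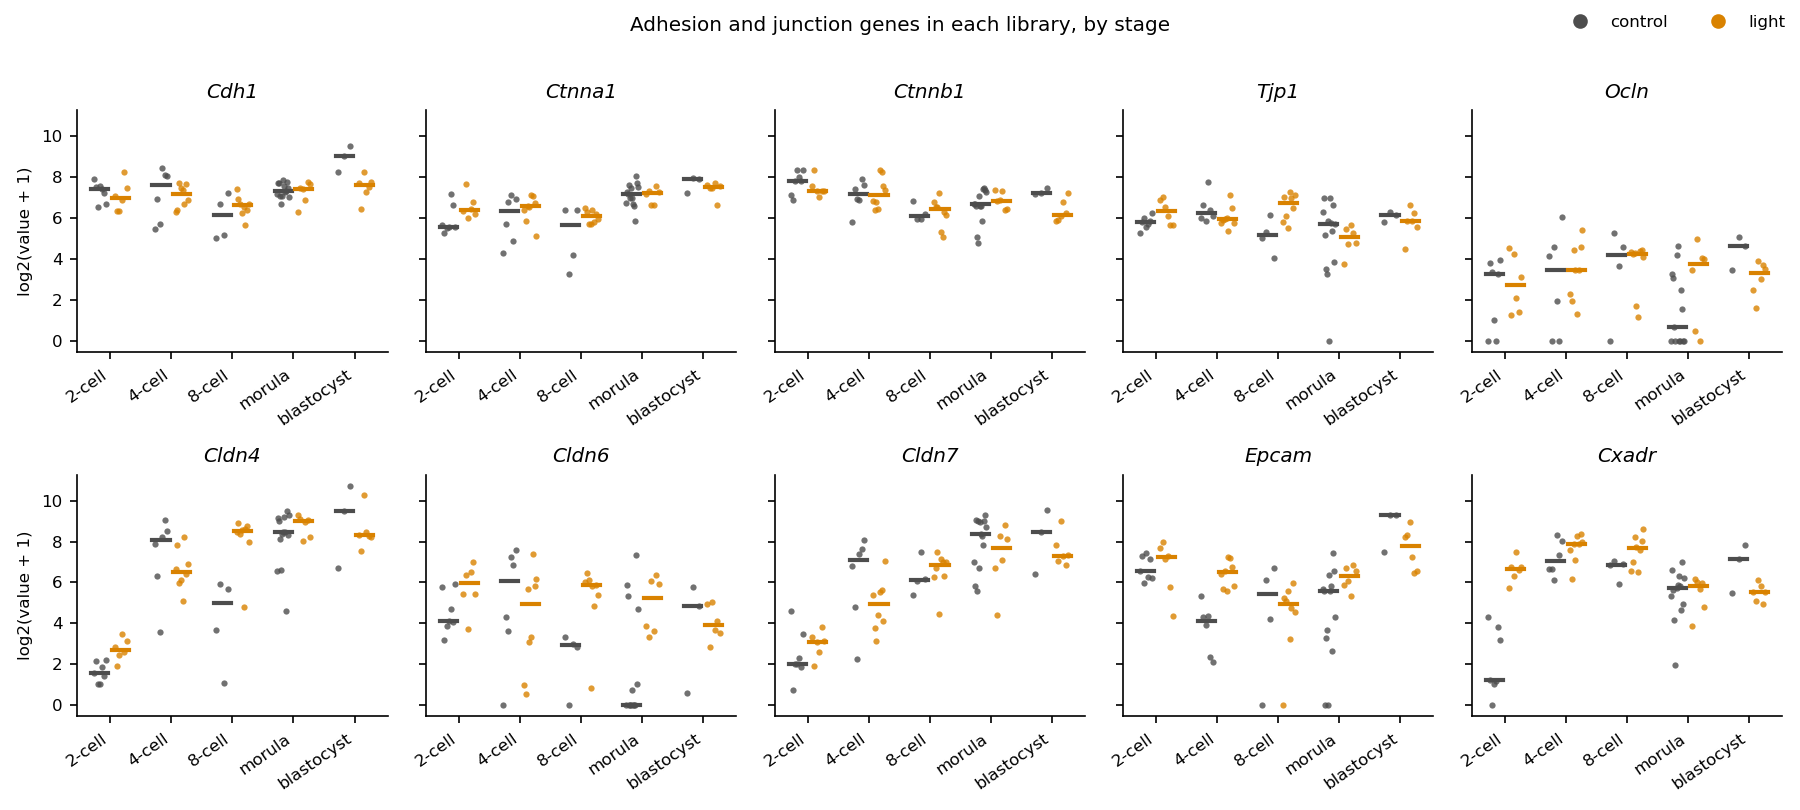
Normalised reads of the 10 genes as log2(value + 1) on the vertical axis against stage, with 1 point per library, control in grey and light in orange, and a bar at the group median. Cxadr is at 0 to 19.0 normalised reads in the 7 control 2-cell libraries and above 51 in the 6 light ones, and Cldn4 is higher in 7 of 8 light 8-cell libraries than in all 4 control ones.

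The scaffold Tjp1 and occludin, a membrane protein of the same junctions, were called at none of the control steps on the deposited scale. Tjp1 had control medians of 55.2, 76.0, 35.4, 51.7 and 70.6 normalised reads over the 5 stages, with 1 of 13 morula libraries at 0. Its control difference from the 2-cell to the 4-cell stage was 0.67, and it was called with quantile normalization (1.16) and with scaling to reads outside the ribosomal genes (1.01). In the light group Tjp1 fell by 1.58 from the 8-cell stage (median 107.0, 44.1 to 152.6, n = 8) to the morula (median 32.3, 12.6 to 50.4, n = 6; SE 0.36, adjusted p = 0.00409 by limma). All but 1 of the 8-cell libraries lay above the morula range. This call was kept in all 14 fits that left out 1 library and in 9 of 10 alternatives. Ocln was the lowest of the genes per kilobase in blastocysts of both groups, with group medians of 0.584 to 23.8 normalised reads, and none of its 13 comparisons was called. From control morula to blastocyst its difference was 2.85, which was called without control morula library 14 (3.11, adjusted p = 0.0436 by limma) and with scaling by the median ratio (3.13).

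Cldn4 had the widest difference of the 10 genes at any step. Cldn4, an epithelial claudin, stood at 1.04 to 3.68 normalised reads in the 7 control 2-cell libraries (1 to 5 reads each) and at 11.0, 78.0, 236.0, 296.2, 358.7 and 531.4 in the 6 control 4-cell libraries. All 4-cell values exceeded all 2-cell values, and 4-cell library 3 was far below the rest. The rise was 5.64 (SE 0.74, adjusted p = 2.69e-06 by limma). Cldn4 then fell by 3.16 to the 8-cell stage, where the 4 control libraries had 1.16, 12.0, 49.6 and 59.6 (SE 0.90, adjusted p = 0.0363 by limma). This fall lost its call in 7 of 10 alternatives (-2.23 to -3.36 over all 10) and without control 4-cell library 4, 5 or 6 or control 8-cell library 1 or 3 (-2.16 to -3.03). From the control 8-cell stage to the morula Cldn4 rose by 4.03 (SE 0.74, adjusted p = 0.000427 by limma), to a median of 349.2 (23.4 to 710.9), and this call was kept in all 17 fits that left out 1 library and all 10 alternatives.

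Cldn7, which pairs with Epcam in epithelial cells, rose with Cldn4 from the 2-cell stage (0.690 to 23.0 normalised reads, median 3.13) to the 4-cell stage (3.80, 26.9, 109.9, 165.2, 199.4 and 269.2) in control. The groups overlapped through 4-cell library 3, which was the lowest for Cldn4 as well. The rise was 3.72 (SE 0.85, adjusted p = 0.00118 by limma). From the 8-cell stage to the morula the control difference was 1.70 (SE 0.58, adjusted p = 0.0484 by limma), a call that was lost in 12 of 17 fits with 1 library left out, by 3 of the 4 control 8-cell libraries (1, 2 and 4) and 9 of the 13 morula libraries, where it lay between 1.40 and 1.70. It was also lost in 6 of 10 alternatives (1.43 to 1.71 over all 10). Cldn6, a claudin of embryonic epithelia, was called at none of the 8 steps between stages. Its values ranged widely within control morulae, with 7 of 13 libraries at 0 and 1 at 162.5. Its control medians were 16.7, 66.2, 6.61, 0 and 27.6 over the 5 stages. Without control 4-cell library 1 its fall to the control 8-cell stage was called (-3.62, adjusted p = 0.0208 by limma), and without light 4-cell library 11 its fall from the light 2-cell stage was (-2.08, adjusted p = 0.0358 by limma).

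Epcam fell and rose again over the control stages. Its 7 control 2-cell libraries had 62.5 to 175.1 normalised reads (median 94.8) and the 6 control 4-cell libraries 3.28, 4.10, 14.1, 19.0, 19.6 and 40.0. The stages did not overlap, and Epcam fell by 2.98 on the log2 scale (SE 0.56, adjusted p = 0.000183 by limma). The 4 control 8-cell libraries held 0, 17.4, 67.6 and 105.1, and morulae a median of 46.4 (0 to 172.2, 2 of 13 at 0). Control blastocysts had 176.7, 620.7 and 628.0, all above the morulae, a rise of 4.30 (SE 1.18, adjusted p = 0.0166 by limma) that was not called without control blastocyst library 2 (4.00, adjusted p = 0.0899 by limma) or 3 (3.99, adjusted p = 0.0965 by limma).

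Cxadr was low in control 2-cell embryos and was above 0 in every control library from the 4-cell stage on, down to 2.94 normalised reads in a morula. The control 2-cell libraries had 0, 1.04, 1.30, 1.38, 8.27, 13.0 and 19.0 normalised reads, and the control 4-cell libraries 69.2 to 318.7 (median 132.4). The stages did not overlap, and the difference was 5.08, which is given without a test, because the same control 2-cell libraries entered the contrast by which Cxadr was chosen. Control medians were 116.2 at the 8-cell stage, 51.4 in morulae and 139.9 in blastocysts, and none of the later control steps was called. In the light group Cxadr fell by 2.11 from the 8-cell stage (median 202.8, 89.0 to 395.1, n = 8) to the morula (median 56.1, 13.9 to 70.5, n = 6), without overlap (SE 0.38, adjusted p = 0.000405 by limma). That fall was called in all 14 fits with 1 library left out and in all 10 alternatives.

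Over the control group, 3 of the 9 genes other than Cxadr were called from the 2-cell to the 4-cell stage (Cldn4, Cldn7 and Epcam) where 46.1% of all genes tested were, and, of all 10, 1 from the 4-cell to the 8-cell stage (6.31%), 4 from the 8-cell stage to the morula (Cldn4, Ctnna1, Cldn7 and Cdh1; 14.3%) and 2 from morula to blastocyst (Epcam and Cdh1; 11.9%). In the light group 2 of the same 9, Cldn4 and Cldn7, were called from the 2-cell to the 4-cell stage (36.5%). At the later light steps, over all 10 genes, 4 were called from the 4-cell to the 8-cell stage (Epcam, Cldn7, Cldn4 and Ctnnb1; 10.6%), 4 from the 8-cell stage to the morula (Cxadr, Tjp1, Epcam and Ctnna1; 11.8%) and 1 from morula to blastocyst (Epcam; 20.7%). Cldn4 rose by 3.91 from the light 2-cell stage (median 5.62, 2.80 to 10.1, n = 6) to the light 4-cell stage (median 91.2, 33.5 to 294.4, n = 8), without overlap (SE 0.48, adjusted p = 2.96e-07 by limma). Cldn7 rose by 1.89 at the same step (SE 0.59, adjusted p = 0.012 by limma). Cxadr, described only, had a median of 101.1 in light 2-cell and 236.4 in light 4-cell libraries.

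From the light 4-cell to the light 8-cell stage, Cldn7 rose by 1.68 (SE 0.46, adjusted p = 0.0133 by limma), from a median of 30.3 (7.74 to 130.1) to 115.6 (20.9 to 181.2). Cldn4 rose by 1.42 (SE 0.44, adjusted p = 0.031 by limma) to a median of 369.1, and 7 of 16 fits with 1 library left out did not call it (1.20 to 1.38 in those fits: without light 4-cell library 6, 9 or 13 or light 8-cell library 5, 6, 10 or 11). Ctnnb1 fell, as given above, and its call was also lost without light 4-cell library 9, 11, 13 or 14 or light 8-cell library 9, 10 or 12, at -0.84 to -0.99. Epcam fell by 2.11 (SE 0.56, adjusted p = 0.0118 by limma), from a median of 90.0 (47.3 to 152.1) to 29.7 (0 to 61.8), and its difference was -0.99 to -1.59 and not called with the 3 other scalings and the 2 count tools. Tjp1, at 0.48 here, was called with those same 5 alternatives (1.03 to 1.16).

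At the next step of the light group Epcam rose by 1.92 to the morula (median 79.3, 39.2 to 115.1; SE 0.63, adjusted p = 0.0434 by limma), a call lost in 7 of 14 fits with 1 library left out (1.77 to 1.99, without light 8-cell library 9 or 12 or light morula library 1, 3, 5, 9 or 12). The call was kept in 6 of 10 alternatives, and lost with a pseudocount of 0.1, no filter on low values, thinned reads and 1 fit over all libraries. Epcam rose again by 1.39 to the blastocyst (median 222.7, 86.8 to 488.8; SE 0.40, adjusted p = 0.0105 by limma). Tjp1 (0.82) and Ctnna1 (0.32) were not called at this last light step on the deposited scale, but were with the 3 other scalings (Tjp1 1.42 to 1.53, Ctnna1 1.01 to 1.06). Whether any step differed between the light and control groups was not tested.

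**Figure D2:**
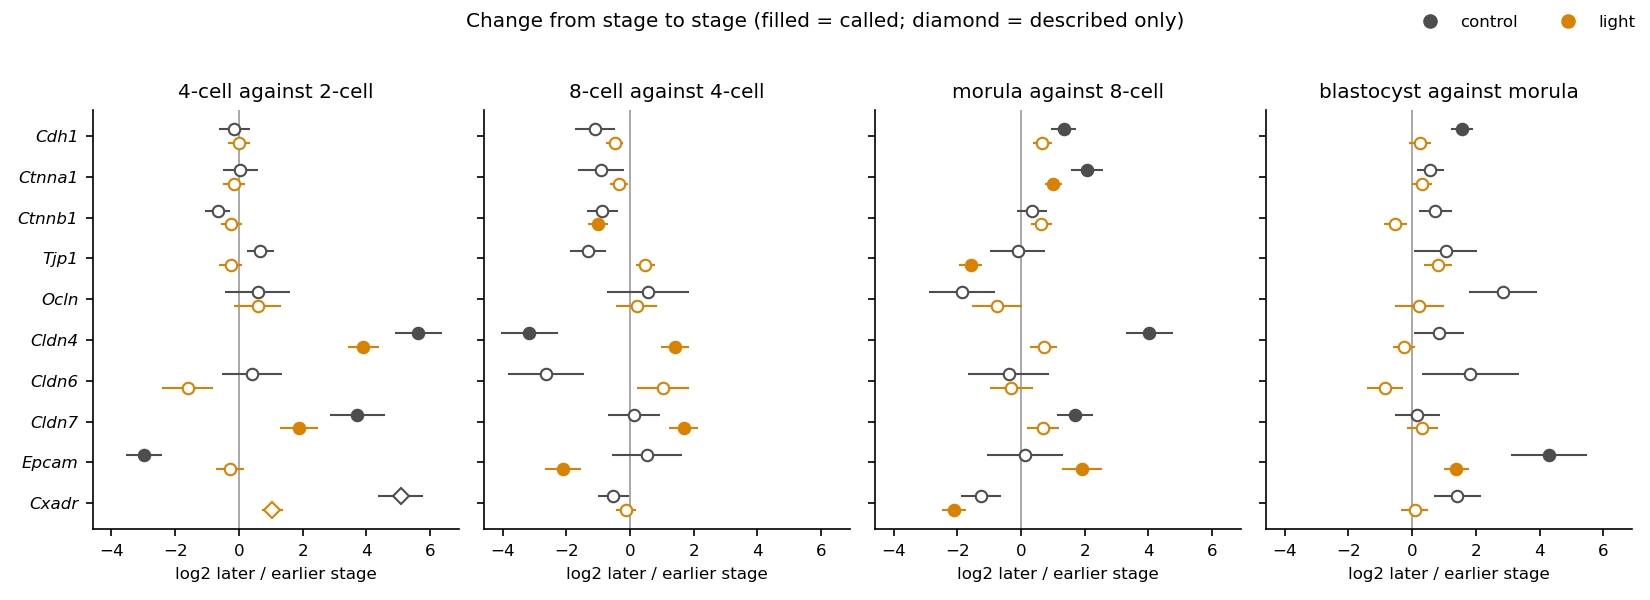
Log2 difference between neighbouring stages on the horizontal axis for the 10 genes, with bars of 1 SE, control in grey and light in orange, filled where called. The diamonds are Cxadr from the 2-cell to the 4-cell stage, which is described only. Cldn4 in control rises (5.64), falls (-3.16) and rises (4.03) over the first 3 steps, while in light it is at 3.91, 1.42 and 0.71.

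Per kilobase of exon (GENCODE M21 models), the order of the genes changed over the stages. In control 2-cell libraries Ctnnb1 (median 43.2 normalised reads per kilobase), Epcam (43.2) and Cdh1 (36.8) led, and Cldn4 (1.09) and Cxadr (0.186) were last. In control blastocysts Cldn4 (389.9), Epcam (282.8), Cldn7 (178.4) and Cdh1 (113.4) led, and Tjp1 (9.04) and Ocln (5.63) were last. Neighbours in the blastocyst order overlapped in range except Cdh1 and Ctnna1 (37.8). Among the 3 claudins, the share of Cldn6 in their summed level per kilobase was 68.1% to 82.6% in control and 53.3% to 94.1% in light 2-cell libraries, and in control blastocysts 0.299% to 5.23%. In those blastocysts Cldn4 had 56.7% to 70.5% of the sum and Cldn7 28.3% to 43.0%. The light blastocysts lay at 1.94% to 5.57%, 56.6% to 71.0% and 25.0% to 38.9%, with overlap for each claudin.

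**Figure D3:**
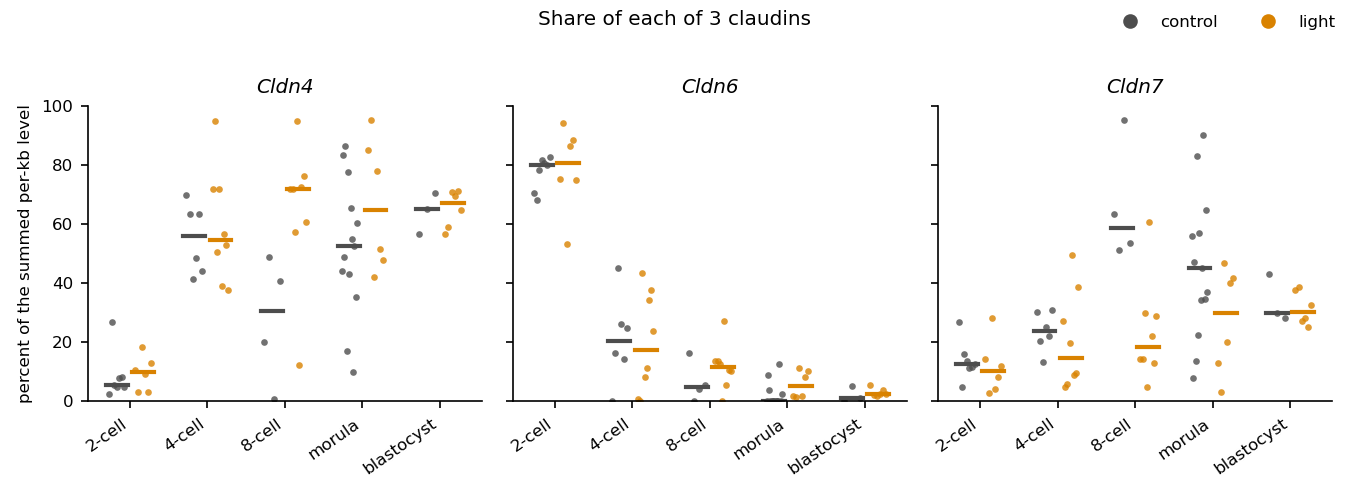
Share of Cldn4, Cldn6 and Cldn7 in the sum of the 3 levels per kilobase, in percent, against stage, with 1 point per library and a bar at the group median, control in grey and light in orange. Cldn6 holds 53.3% to 94.1% in all 2-cell libraries, and Cldn4 56.6% to 71.0% in all blastocyst libraries.

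In light 2-cell embryos Cxadr was higher than in control and none of the other 9 genes was called. The values that chose Cxadr were 51.6, 78.0, 95.1, 107.2, 108.8 and 176.0 normalised reads in the light libraries (28 to 189 reads each) against the control values of 0 to 19.0 given above (0 to 48 reads each), a log2 difference of 4.48, and the groups did not overlap. Btg3, whose exons share 695 bases with Cxadr on the opposite strand, stood at 11.7 to 65.4 in the light and 0 to 21.9 in the control libraries. If strand was not used in counting, reads of Cxadr and Btg3 cannot be told apart within the shared bases, and how much of the difference this affects was not tested. The share of all genes called at this stage was 10.5% of 18532, and 4.15% did not overlap between the groups. Of the other 9 genes 0 were called by limma, 1 (Cldn6) had an unadjusted p under 0.05, 0 were called by edgeR or DESeq2, and 0 did not overlap. Cldn6 had a median of 62.0 (12.4 to 125.1) in light and 16.7 (8.28 to 58.8) in control, a difference of 1.22 (95% interval 0.10 to 2.35), and Cldn4 5.62 (2.80 to 10.1) against 1.98 (1.04 to 3.68), a difference of 1.12. Oocyte and maternal RNAs (5 of 5 markers measured, none at 0) summed to 2248 to 5151 normalised reads in control and 699 to 1920 in light 2-cell libraries, without overlap. The markers did not all follow this sum. Bmp15 averaged 2506 in control and 537.8 in light, but Zp3 averaged 59.5 in control and 70.9 in light. Gdf9 overlapped, at 213.8 to 361.4 in control and 82.1 to 513.0 in light. Cumulus and granulosa markers (4 of 7 in the table) summed to 0 to 6.90 in control and 3.89 to 54.6 in light, with Fshr at 0 in all light 2-cell libraries. The part of these markers in the results was not tested.

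At the 4-cell stage Epcam was the gene that differed. Its 8 light libraries had 47.3 to 152.1 normalised reads (median 90.0) and its 6 control libraries 3.28 to 40.0 (median 16.5), so every light value lay above every control value. Means were 92.5 ± 41.1 (SD, n = 8) and 16.7 ± 13.4 (SD, n = 6), and the difference was 2.69 (SE 0.52, adjusted p = 0.0143 by limma). This call was kept in all 14 fits with 1 library left out and in 9 of 10 alternatives (2.29 to 2.81). A fit of fewer libraries with the shared number as a block, described at the end, is not among these 10. In it Epcam was 2.97 and not called (adjusted p = 0.251 by limma). Epcam was 1 of 10 genes, beside 1.45% of all genes called and 0.56% without overlap between the groups. In control 4-cell libraries 3 to 6, whose Gm42418 to CT010467.1 ratio (1.61 to 1.98) is nearest that of the light 4-cell libraries (1.43 to 1.63), Epcam was 3.28 to 19.6. The part of this ratio in the result was not tested. Cldn7 had a light median of 30.3 (7.74 to 130.1) and a control median of 137.6 (3.80 to 269.2), a difference of -1.28 that was not called (adjusted p = 0.356 by limma). Without control 4-cell library 3 it was -2.06 and called (adjusted p = 0.049 by limma). The other 8 genes differed by -0.81 (Cldn6) to 0.57 (Ocln) and were not called.

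At the 8-cell stage, when the mouse embryo compacts, 3 tight junction genes were higher in light. Cldn4 had 27.1, 254.6, 325.1, 357.5, 380.6, 388.9, 434.6 and 484.2 normalised reads in the light libraries and 1.16, 12.0, 49.6 and 59.6 in the control libraries. Light library 9 lay inside the control range and the other 7 far above it. Cldn4 rose by 3.96 (SE 0.71, adjusted p = 0.00106 by limma) and was called in all 12 fits with 1 library left out (2.97 to 4.57) and all 10 alternatives (3.33 to 4.19). The same 4 control libraries carried the fall and rise of Cldn4 over the control stages given above. The summed level per kilobase of Cldn4, Cldn6 and Cldn7 was 32.9 to 95.3 in control and 121.0 to 370.9 in light 8-cell libraries.

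In 8-cell libraries Cldn6 averaged 5.62 ± 3.96 normalised reads (SD, n = 4) in control and 50.6 ± 26.8 (SD, n = 8) after light. The control libraries had 0, 6.26, 6.97 and 9.26, and 7 of the 8 light libraries lay at 27.9 to 87.6 with 1, library 8, at 0.774. Cldn6 rose by 2.87 (SE 0.84, adjusted p = 0.0313 by limma), and it was not called without light 8-cell library 5, 6, 7, 9 or 11 (2.69 to 2.78) or control library 2 (2.11, adjusted p = 0.126 by limma). The call was also lost in 3 of 10 alternatives, with a pseudocount of 0.1 (3.68, adjusted p = 0.0571 by limma), no filter on low values and 1 fit over all libraries. Tjp1 had 44.1 to 152.6 in light (median 107.0) and 15.9, 31.5, 39.4 and 69.7 in control, with overlap. It rose by 1.40 (SE 0.42, adjusted p = 0.0342 by limma), and the call was lost in 7 of 12 fits with 1 library left out, without light 8-cell library 6, 9, 10 or 12 or control library 1, 2 or 4 (1.04 to 1.46), and in 7 of 10 alternatives (1.16 to 1.40 in those). These calls are 3 of 10 genes beside 9.21% of all genes tested, and 0 of the 10 were without overlap beside 5.61%. Ctnna1 (1.02, adjusted p = 0.192 by limma) and Cxadr (0.86, adjusted p = 0.144 by limma) were not called, and Cdh1, Ctnnb1, Ocln, Cldn7 and Epcam differed by 0.02 to 0.55. Trophectoderm markers (6 of 6 measured) summed to 11.615 to 74.1 in light and 0 to 11.608 in control 8-cell libraries, with Cdx2, Krt8 and Elf5 at 0 in all control and Elf5 in all light libraries, and inner cell mass markers to 111.1 to 864.2 against 123.0 to 190.6. The part of these markers in the result was not tested.

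In morulae 0 of the 10 genes were called by limma, beside 1.18% of all genes called and 0.552% without overlap, and 0 of the 10 were without overlap. An unadjusted p under 0.05 was given to 2 (Cldn6 and Epcam), and edgeR and DESeq2 called 0. Cldn6 had 9.06, 11.2, 13.9, 60.2, 66.5 and 82.4 normalised reads in light, against 0 in 7 of the 13 control libraries and 0.657 to 162.5 in the other 6. No light library was at 0, and the difference was 2.95 (95% interval 0.90 to 5.00, adjusted p = 0.151 by limma). Epcam had a light median of 79.3 (39.2 to 115.1) and a control median of 46.4 (0 to 172.2), a difference of 1.84 (adjusted p = 0.268 by limma).

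In blastocysts Cdh1 was the only 1 of the 10 genes called. It had 85.7, 155.3, 179.6, 212.7, 218.7 and 299.5 normalised reads in light and 308.8, 518.7 and 725.6 in control, so that the groups did not overlap, and the nearest values were light library 23 and control library 1. Cdh1 fell by 1.44 on the log2 scale (SE 0.39, adjusted p = 0.034 by limma), against a median of -0.64 over all genes. With the 3 other scalings, which bring that median to -0.09 to 0.05, the difference was -0.67 to -0.88 and not called, and edgeR (-0.67) and DESeq2 (-0.68) did not call it. The call was also lost without light library 15 (-1.23), 24 (-1.40) or 26 (-1.44) or control library 2 (-1.39) or 3 (-1.15). It was 1 of 10 genes beside 5.34% of all genes called, and 1 without overlap beside 12.5%. Cxadr had a light median of 45.0 (29.8 to 67.7) and control values of 44.2, 139.9 and 229.2, a difference of -1.32 that was not called (adjusted p = 0.111 by limma). It was called without control library 1 (-1.99, adjusted p = 0.025 by limma), was -0.82 without control library 3, and was -0.56 with scaling to reads outside the ribosomal genes (adjusted p = 0.529 by limma). The other differences were -1.34 (Ocln) to 0.29 (Cldn6). Inner cell mass markers (5 of 5 measured, none at 0) summed to 129.1 to 199.0 in light and 270.3 to 1497 in control blastocysts, trophectoderm markers to 2573 to 6751 and 404.5 to 6019 with control library 1 lowest, and primitive endoderm markers to 70.3 to 128.8 and 42.4 to 479.7. Their part in the result was not tested.

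**Figure D4:**
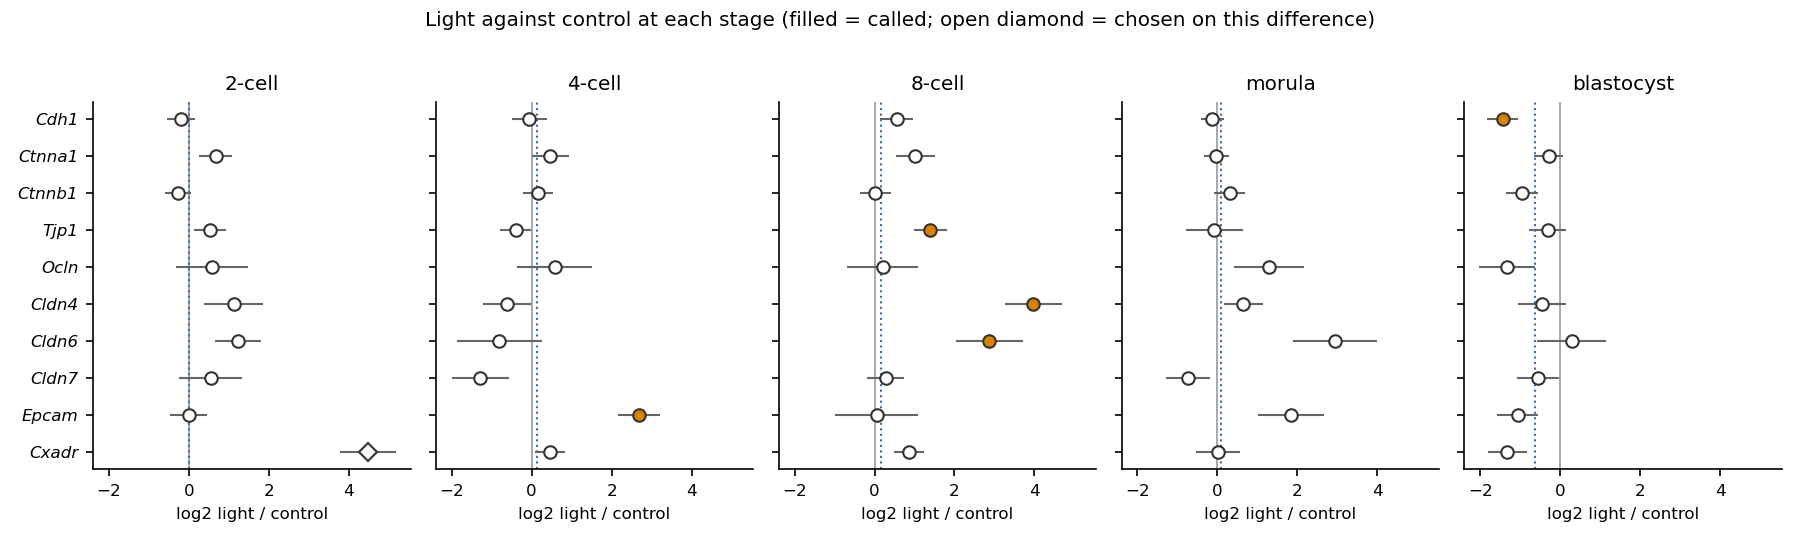
Log2 difference between light and control on the horizontal axis for the 10 genes at each stage, with bars of 1 SE, filled where called, and a dotted line at the median of all genes. The open diamond is Cxadr at the 2-cell stage, on which it was chosen (4.48), and the filled points are Epcam at the 4-cell stage (2.69), Cldn4, Cldn6 and Tjp1 at the 8-cell stage (3.96, 2.87 and 1.40) and Cdh1 in blastocysts (-1.44).

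The other genes of the junctions, cell polarity and the cortical cytoskeleton numbered 97. Of 82 tested in 2-cell embryos, 2 rose and 10 fell in light. Of 70 in 4-cell embryos 0 rose and 1 fell, of 64 in 8-cell embryos 10 rose and 2 fell, of 71 in morulae 0 rose and 0 fell, and of 69 in blastocysts 0 rose and 7 fell. The shares called were 14.6%, 1.43%, 18.8%, 0% and 10.1%, beside the shares of all genes given above. Over all genes, 1024 rose and 920 fell in 2-cell embryos, 168 and 50 in 4-cell embryos, 819 and 457 in 8-cell embryos, 54 and 125 in morulae, and 45 and 635 in blastocysts. The median differences were -0.25, -0.15, 0.20, 0.05 and -0.45, beside 0.00, 0.13, 0.16, 0.10 and -0.64 over all genes. In morulae, where limma called 0, 14 had an unadjusted p under 0.05, edgeR called 0 and DESeq2 called 1.

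At the 2-cell stage the rises in light with the largest size were those of Gja1 (connexin 43, a gap junction channel; 107.2 against 29.7 normalised reads on average, 2.17, adjusted p = 0.043 by limma) and Jup (plakoglobin; 1.78, adjusted p = 0.0371 by limma). The largest falls were those of the polarity gene Pard6g (8.96 against 60.7, -2.73, adjusted p = 0.00309 by limma) and Cdh3 (P-cadherin; 71.4 against 225.7, -2.21, adjusted p = 0.00276 by limma). At the 4-cell stage Myl6, a myosin light chain, fell by 1.36 (adjusted p = 0.0358 by limma).

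At the 8-cell stage Krt8, a keratin and trophectoderm marker, averaged 11.0 normalised reads in light and was listed at 0 in the 4 control libraries, so that no fold change is given. Gja1 rose by 2.27, and F11r, the tight junction protein JAM-A, rose by 2.43 (356.8 against 64.7, adjusted p = 5.87e-05 by limma). The falls were those of Llgl2, a basolateral polarity gene (172.4 in control and 43.7 in light on average), and Myo10, an unconventional myosin (-2.26). In blastocysts Gja1 (-1.93) and Gjb5, another gap junction gene (-2.47), fell, against the median of -0.64 over all genes on this scale, and the largest falls were those of the tight junction genes Jam2 (37.3 in control and 0.562 in light, -3.56) and Marveld3 (16.0 and 1.41, -2.90). F11r, Gja1 and Gjb5 were named here for their place among the called genes after their values were seen.

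**Figure D5:**
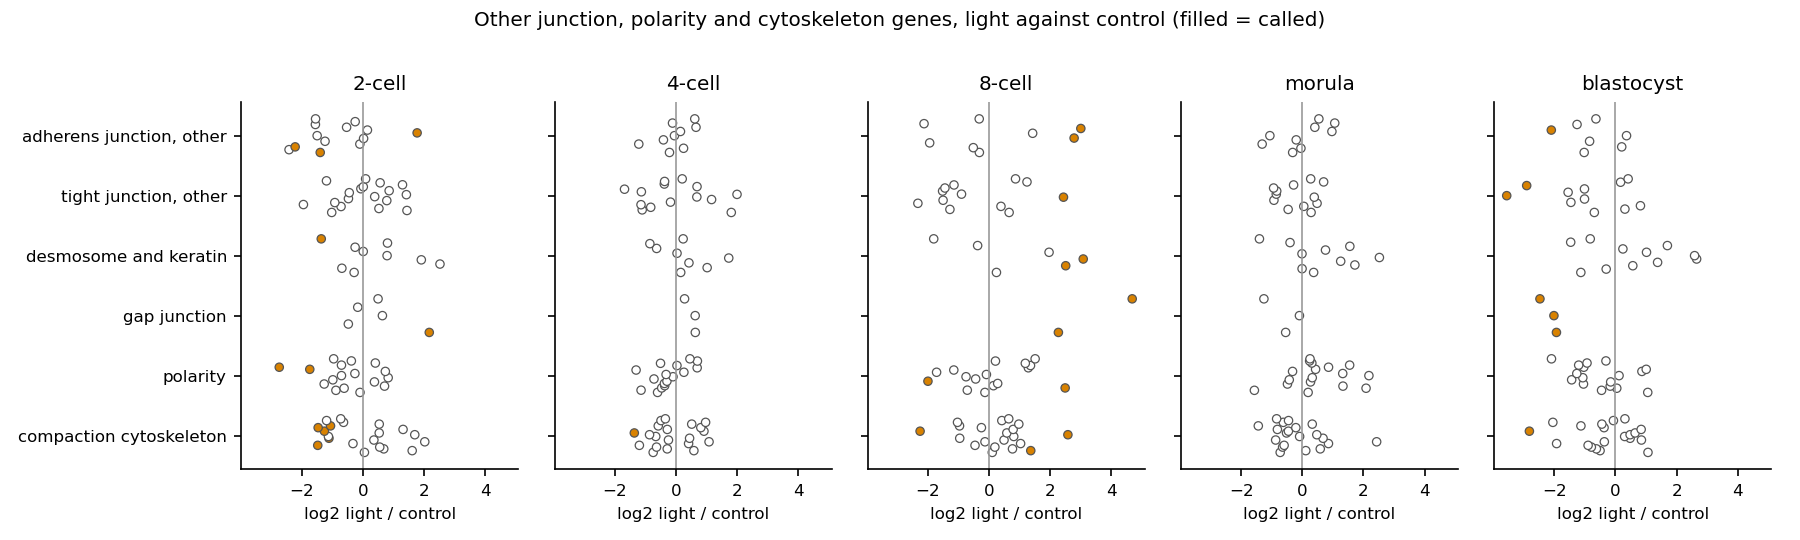
Log2 difference between light and control on the horizontal axis for the other junction, polarity and cytoskeleton genes tested at each stage, 1 point per gene, in 6 lists and filled where called. At the 8-cell stage 10 of the 12 called genes lie to the right of 0, at the 2-cell stage 10 of 12 lie to the left, and in blastocysts 7 of 7 do, where 635 of the 680 genes called over the whole table fell.

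Between control stages the same 97 genes gave 9 rises and 31 falls from the 2-cell to the 4-cell stage, 0 and 8 to the 8-cell stage, 19 and 4 to the morula and 15 and 1 to the blastocyst, of 77, 61, 70 and 73 tested. The shares called were 51.9%, 13.1%, 32.9% and 21.9%, and over all genes the same steps gave 2453 rises and 5719 falls, 153 and 694, 1024 and 1121, and 1010 and 765. The light group gave 5 and 30, 2 and 6, 17 and 3, and 18 and 6, of 77, 71, 69 and 71, beside 1283 and 5010, 94 and 1508, 665 and 1040, and 681 and 2131 over all genes. From the control 2-cell to the 4-cell stage Cdh3 fell from 225.7 to 3.12 normalised reads on average (-6.74) and Pard6b from 135.4 to 3.98 (-5.65), while Gja1 rose by 4.32 and Myl12b, a myosin light chain, by 3.59. Myl12b fell again by 3.29 and Jup by 3.07 to the control 8-cell stage. Krt8 was listed at 0 in the control 8-cell libraries and averaged 101.0 in control morulae, and Cldn5 and Cldn9, claudins outside the group of 3, fell at this step, from 21.1 to 0.149 and from 13.9 to 1.31 on average. From control morula to blastocyst Msn (moesin, a linker of membrane and actin) rose from 1.42 to 526.9 (7.65) and Dsc2, a desmosomal cadherin, from 0.278 to 55.1 (5.23), while Enah fell by 1.48.

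The patterns over the 67 libraries were compared by Pearson's r of log2 values, as a description, since the points share libraries, size factors and stages. Among the 45 pairs of the 10 genes, Cldn4 and Cldn7 were most alike (r = 0.76), followed by Cdh1 with Ctnna1 (0.47) and Cldn4 with Cxadr (0.45), and Ctnnb1 with Cldn7 was lowest (-0.40). Among 11121 genes with a mean of at least 10 normalised reads in a group, those most like Cldn4 were Ckmt1 (0.85), Lrpap1 (0.83) and Ddah1 (0.82). The genes most like Cxadr were Eif3l (0.79), Abce1 (0.73) and Phgdh (0.73), and those most like Cdh1 were Gipc1 (0.66), Fabp5 (0.63) and Suclg2 (0.62).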

How the data were processed

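Reads were aligned with HISAT2 and counted with HTSeq 0.9.1, and the submitters' processing notes name mm9. The authors deposited 1 table of signal values for 26414 genes, in which the reads of each library are divided by a size factor. The study's methods describe RPKM, but the values showed no division by length, and multiplying them by the size factor gave reads that were whole (tolerance 0.01) in 99.95% or more of values in every library. All 67 libraries were used, grouped by the labels' stage and group.

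The 10 genes, the lists and the promoter motifs were chosen with earlier results of these data known. Under R 4.3.3, log2(value + 1) was fitted with limma 3.58.1, using lmFit and a trended eBayes, for genes exceeding 1 in 3 or more compared libraries, with p-values adjusted by Benjamini-Hochberg over all genes tested, in 13 comparisons (light against control at 5 stages, 4 neighbouring-stage steps per group), with no covariate. This test for normalised values was kept as designed, and code was tested on simulated data. Alternatives were a pseudocount of 0.1, no filter, a mean above 5, 3 scalings (median ratio, quantile, reads outside CT010467.1 and Gm42418), thinning, 1 fit over all libraries, and edgeR 4.0.16 and DESeq2 1.42.0 on the recovered reads. A replicate block and fits with each library left out were also run, and are not in the counts of 10 alternatives. The libraries held 836011 to 8551674 reads, and 1 read was worth 0.266 to 3.89 normalised reads.

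Of the other junction, polarity and cytoskeleton genes, at most 2 risers and 2 fallers, by size among called genes with a group mean of 10 or more, are named for each light comparison and each control step, and exceptions are stated. A result that this rule would name is not reported here. Markers and patterns used fixed lists and Pearson's r. Gene models were GENCODE M21 and promoters RefSeq, both of GRCm38, matched by symbol. The levels per kilobase and claudin shares rest on the exon lengths of these models, and no other value does.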

Additional observations from a re-analysis of the deposited data

Results flagged for a closer look

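In 80 groups of 4 to 10 libraries (each of the 10 genes in 8 stage groups), Dixon's ratio placed 10 single libraries far from the rest of their group. For normally distributed and independent values, chance alone gives about 1 such library in 20 groups, or 4 here. The ratio was taken on untransformed values and the genes share libraries, so more than 4 can be chance. In light 2-cell library 10, Ctnna1 stood at 205.3 normalised reads (next value 110.1) and Ctnnb1 at 321.6 (189.9). In light blastocyst library 23, Cldn4 stood at 1251 (354.3) and Cldn7 at 514.1 (229.8), and the same library was nearest to the control blastocysts for Cdh1. Light blastocyst library 26 had Ctnna1 at 99.3, below the next value of 175.4. In control 4-cell libraries, Tjp1 stood at 216.1 in library 4 (100.3) and Ocln at 66.5 in library 6 (23.2). Cldn6 was 169.7 in light 4-cell library 11 (70.7), Cldn7 130.1 in light 4-cell library 14 (49.4), and Cldn7 23.0 in control 2-cell library 8 (10.1), the library with the highest Cxadr among control 2-cell embryos.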

How the results depend on the processing

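No difference changed its direction together with a call. Of the 10 genes (the 9 other than Cxadr where 2-cell libraries enter), the number called moved by more than 1.5 times as follows. With 1 fit over all libraries it went from 1 to 0 (light against control, 4-cell), from 3 to 1 (8-cell), from 1 to 0 (blastocyst), and in light from 4 to 0 (8-cell against 4-cell), 4 to 1 (morula against 8-cell) and 1 to 0 (blastocyst against morula). With no filter on low values it was 1 at the 8-cell stage, 0 in blastocysts, 0 for the control and 2 for the light step to the 8-cell stage. A pseudocount of 0.1 gave 0 in blastocysts, 0 for the control step to the 8-cell stage and 1 for that to the blastocyst. The 3 other scalings, edgeR and DESeq2 each gave 0 in blastocysts and 0 for the control step to the 8-cell stage. For the light step to the blastocyst the 3 scalings and DESeq2 gave 3 and edgeR gave 2. edgeR gave 2 for the control step to the morula. The cause was not tested.

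With 1 library left out, the numbers called in light against control were 0 to 0 (of the 9 genes other than Cxadr), 1 to 2, 1 to 3, 0 to 0 and 0 to 2 over the 5 stages. From the 2-cell to the 4-cell stage in control, Cldn4, Cldn7 and Epcam were called in all 13 such fits, with Cxadr left out. At the later control steps the numbers called were 0 to 2, 2 to 4 and 0 to 3. Over the 4 light steps they were 2 to 3, 2 to 4, 2 to 4 and 1 to 1. Over all genes the counts called over the alternatives ranged from 53 to 754 in 4-cell embryos (218 as reported), 156 to 761 in morulae (179) and 151 to 659 in blastocysts (680), and for the steps from 187 to 1524 (847) and 1705 to 3332 (2145) in control to the 8-cell stage and the morula, 1138 to 3071 (1775) to the control blastocyst, and 247 to 1649 (1602) and 1038 to 1855 (1705) in light to the 8-cell stage and the morula. Other junction genes called ranged from 10 to 22 (12), 1 to 3 (1), 7 to 16 (12), 0 to 2 (0) and 2 to 8 (7) over the 5 stages. With 1 library left out, all genes called were 65 (without control 4-cell library 5) to 771 (control 3) in 4-cell embryos, 82 (light 12) to 240 in morulae and 89 (control 2) to 950 in blastocysts, and other junction genes called were 8 to 14, 0 to 3 (control 4-cell library 3 for 3), 8 to 13, 0 to 2 (control morula library 21 for 2) and 1 (control blastocyst library 2) to 12 (light 23).

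Light and control libraries shared numbers at the 2-cell (3), 4-cell (3) and morula (4) stages. Their deviations from the group means correlated at -0.087 to 0.069. With 3 or 4 shared numbers per stage, this cannot decide whether equal numbers mark a shared origin. A fit of only the libraries with a shared number, with that number as a block, called 0 of these genes at each of these stages. It called 2263, 0 and 0 of all genes. The fit of all libraries without a block called 1 at the 4-cell stage, Epcam, which was 2.97 (adjusted p = 0.251 by limma) in the blocked fit. As the blocked fit used fewer libraries, the effect of the block alone cannot be read from it. For 8-cell embryos and blastocysts no paired analysis was possible because no number was shared, and equal numbers at different stages are different embryos. Limits are the 3 control blastocyst and 4 control 8-cell libraries, the amplified reads without molecular identifiers, and the ribosomal genes that set the deposited scale.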
